A study of Mus musculus with 26 samples.

Results

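Calhm4, Calhm5 and Calhm6 are neighbouring genes of the calcium homeostasis modulator family on mouse chromosome 10, and 11 of the 65535 probe sets in the table used here read them. A probe set was taken where the array annotation gave it a single gene symbol and that symbol was one of the 3 genes, which the annotation still lists as Fam26d, Fam26e and Fam26f. Calhm4 had 4 probe sets, Calhm5 had 4 and Calhm6 had 3, and the 3 genes are 3 of the 5109 with a probe set of their own. Of these 5109 genes 5081 lie on chromosomes 1, 10, 11, 12 and 13, so ranks, similar genes and lists below cover those chromosomes and hardly any gene of the others. Calhm6 was picked because it rose at its brightest probe set in MCA313 tumour endothelium at 24 h and 48 h and in kidney endothelium. Those changes are therefore given as a description with no test, whereas J558L tumour endothelium and 16.113 tumour endothelium did not enter the choice of the gene and were tested. Its probe set, however, was chosen by the mean over all arrays, those of J558L and 16.113 tumours included. Calhm6 was also admitted to the gene tests through values above the array median in induced and competent arrays alone. The tests are therefore not fully free of the values they use.

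Calhm proteins assemble into large-pore channels of the plasma membrane, and the family is best known from taste cells, where such a channel releases ATP as a transmitter. Calhm6, also known as INAM, is an interferon-inducible membrane protein of macrophages and dendritic cells that takes part in the activation of natural killer cells. Calhm4 is known from the placenta, and the physiological role of Calhm5 is less well described.

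The 26 microarray samples hold endothelial cells of female mice, sorted as CD31+/CD146+ from tumours or kidneys. MCA313-IFNγ-IND tumours grew in mice aged 4-6 months labelled PIG-Pdgfb-Cre-IFNγ-del, in which the interferon gamma (IFNγ) receptor is present on endothelial cells alone, through a Cre driven by Pdgfb. Their 3 control arrays come from tumours with no induction (0 h), 2 arrays from tumours whose cells had released IFNγ for 24 h, and 2 from tumours at 48 h. J558L-IFNγ-GFP-IND tumours grew in Rag-/- mice aged 4-6 months, which carry the receptor on all cells and have no mature T or B cells. Endothelium was taken from these tumours at 0 h (2 arrays) and after 24 h of a secreted IFNγ-GFP fusion (3 arrays), and from the kidneys of J558L-bearing mice at 0 h (3 arrays) and 24 h (3 arrays). 16.113 tumours grew in Rag-/- mice aged 3-4 months and were sampled 120 h after transfer of tumour-specific T cells. In 3 arrays these T cells were able to produce IFNγ (competent) and in 5 they lacked it (deficient), so the control mice had received T cells too. The labels do not state whether replicates came from separate animals, so p-values measure the spread between these samples, which may be technical.

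Values are log2 expression values of the deposited table, and the 4 array sets, which are 16.113, MCA313 and the tumour and kidney arrays of J558L, appear to have been normalized separately. Levels are therefore compared within a set, and across sets only as the percentile of a probe set among all probe sets of its own array. Medians of all probe sets lay between 5.62 and 6.46 over the 26 arrays. Replicates correlated at 0.912 to 0.955 over all probe sets in every group other than the 16.113 competent group, where r was 0.889, 0.878 and 0.847. The endothelial markers that could be read (3 of 12 listed: Pecam1, Icam2 and Sox17) averaged 11.68 to 12.96 in every array, far above the array medians. None of the 3 passed the test in any comparison, where 0.547% to 7.36% of all genes passed. Measured markers of most other listed cell types also averaged above the array medians. Their array means were 6.95 to 9.07 for macrophages and dendritic cells and 6.26 to 7.37 for leukocytes and T cells. They were 7.27 to 9.49 for fibroblasts and pericytes and 10.26 to 11.52 for plasma cells. Such levels do not show that endothelial cells were alone in the samples. Mcam, which encodes the sorting marker CD146, was not analysed here.

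The 3 genes lie on the minus strand, in the order Calhm4 (chr10:34038784-34044313), Calhm5 (chr10:34091352-34096519) and Calhm6 (chr10:34126067-34127972), by the RefSeq annotation of GRCm38.p6. The position of a probe set within its gene was not given in the sources used here, so no exon is named. The 250 bases before the annotated start of each gene are shown because 1 of the 3 neighbours was higher with IFNγ in each model and the others showed no change past the test. Capitals mark GAAA, any 2 bases and GAAA again, the core of the element that interferon regulatory factors read.
Calhm6 (chr10:34127973-34128222, minus strand): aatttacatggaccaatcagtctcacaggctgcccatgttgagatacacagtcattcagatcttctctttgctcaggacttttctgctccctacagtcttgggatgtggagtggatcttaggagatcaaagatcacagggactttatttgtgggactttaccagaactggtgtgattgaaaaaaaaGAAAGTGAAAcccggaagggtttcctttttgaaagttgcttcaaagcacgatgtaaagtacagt
Calhm5 (chr10:34096520-34096769, minus strand): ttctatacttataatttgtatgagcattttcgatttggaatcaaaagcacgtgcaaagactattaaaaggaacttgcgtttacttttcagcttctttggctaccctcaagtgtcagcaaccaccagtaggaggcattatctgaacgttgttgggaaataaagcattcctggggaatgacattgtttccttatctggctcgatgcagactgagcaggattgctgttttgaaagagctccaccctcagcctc
Calhm4 (chr10:34044314-34044563, minus strand): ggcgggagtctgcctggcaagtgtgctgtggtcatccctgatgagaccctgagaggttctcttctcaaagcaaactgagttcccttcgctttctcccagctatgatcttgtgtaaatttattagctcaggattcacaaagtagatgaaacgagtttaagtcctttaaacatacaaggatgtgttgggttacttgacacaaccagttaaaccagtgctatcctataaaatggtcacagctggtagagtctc
Windows of 300 bases, from 250 before to 50 after the start, were searched on both strands for that motif. The paired GAAA motif stood in 3.44% of 32851 such windows of the RefSeq promoter table. Calhm6 held 1 match, GAAAGTGAAA, which begins 64 bases before the start at chr10:34128027-34128036. Calhm4 and Calhm5 held none. A match is a description of these letters and not of binding.

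Calhm6 was higher with IFNγ in all 5 comparisons at probe set 17240187, the brightest of its 3 by the mean over all arrays. In MCA313 tumours that probe set read 3.83, 3.60 and 4.81 at 0 h, 8.39 and 8.48 at 24 h, and 8.27 and 7.91 at 48 h. All 4 induced arrays lay above all 3 controls, and the controls lay below the array medians of 5.78 to 5.88. The mean moved from 4.08 ± 0.65 (SD, n = 3) to 8.44 ± 0.06 (SD, n = 2) at 24 h and 8.09 ± 0.25 (SD, n = 2) at 48 h, differences of 4.36 ± 0.76 and 4.01 ± 0.76 (log2 change ± standard error), or 20.5-fold and 16.1-fold. Both times share the same control arrays. Since the control mean lies below the array medians and background was not measured, the size of these changes is uncertain, here and in the other comparisons of this gene.

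In kidney endothelium of J558L-bearing mice the same probe set stood at 3.07, 4.11 and 3.56 without induction and at 10.13, 10.17 and 9.84 after 24 h. The groups were far apart, and the induced values were the highest that Calhm6 reached in any array, at percentile 88.7 to 90.7 of their arrays. The difference was 6.46 ± 0.68 (88.1-fold), from 3.58 ± 0.52 (SD, n = 3) to 10.04 ± 0.18 (SD, n = 3). Among the 4386 genes tested, nearly all on those 5 chromosomes, this was the largest upward change in kidney, and Calhm6 ranked 2nd and 4th in MCA313 tumours at 24 h and 48 h.

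In J558L tumour endothelium the difference was smaller. Probe set 17240187 read 4.66 and 4.70 at 0 h and 7.24, 7.23 and 7.12 after 24 h, so both groups were tight and did not overlap. The mean moved from 4.68 ± 0.03 (SD, n = 2) to 7.20 ± 0.07 (SD, n = 3), a difference of 2.52 ± 0.75 (5.73-fold, 95% confidence interval 0.95 to 4.08). The call did not pass in limma over all genes (adjusted p = 0.175), where 0.547% of genes passed. The standard error is shared by all 9 groups, and 87.4% of the squared deviations of this probe set from its group means came from the 16.113 competent group. Without competent replicate 3, an omission chosen after seeing the data, the change was 2.52 ± 0.29 (adjusted p = 0.000215, limma). That array lies outside this comparison, and leaving it out narrows the shared spread of this probe set. The resulting p is therefore a description and no support for the call. With the J558L tumour arrays alone the adjusted p was 0.0198, and with array weights it was 0.00171 (limma). Leaving out each J558L tumour array in turn gave adjusted p from 0.332 to 0.79. The other alternatives, with the full set of arrays or the J558L tumour arrays, gave 0.00171 to 0.216.

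In 16.113 tumours Calhm6 was high in 2 of 3 arrays from mice given IFNγ-competent T cells, at 8.97 and 9.03. Competent replicate 3 stood at 4.81, which is below its array median. The 5 arrays with IFNγ-deficient T cells read 4.27, 4.19, 3.90, 4.45 and 4.11, so that all 3 competent arrays lay above them, replicate 3 by a small margin. The means were 7.60 ± 2.42 (SD, n = 3) and 4.19 ± 0.20 (SD, n = 5), and the rise of 3.42 ± 0.60 (10.7-fold, 95% confidence interval 2.17 to 4.67) passed in limma (adjusted p = 0.00163), where 7.36% of genes passed and 2.55% rose. Calhm6 was admitted to this test by values above the array median in induced and competent arrays alone, competent replicates 1 and 2 among them. Admission was thus not free of the values tested. With no such filter the adjusted p was 0.0018 (limma). The exact two-sided permutation test over the 8 arrays gave p = 0.0357, the smallest that 56 splits allow. The standard error is shared by all 9 groups, whereas 87.4% of the squared deviations of this probe set came from the competent group. The interval and the limma p therefore rest on a spread smaller than that of this comparison. With the 16.113 arrays alone the rise was 3.42 ± 0.84, and the call was lost (adjusted p = 0.109, limma). Without competent replicate 3 the rise was 4.81 ± 0.27 (adjusted p = 7.87e-10, limma).

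**Figure D1:**
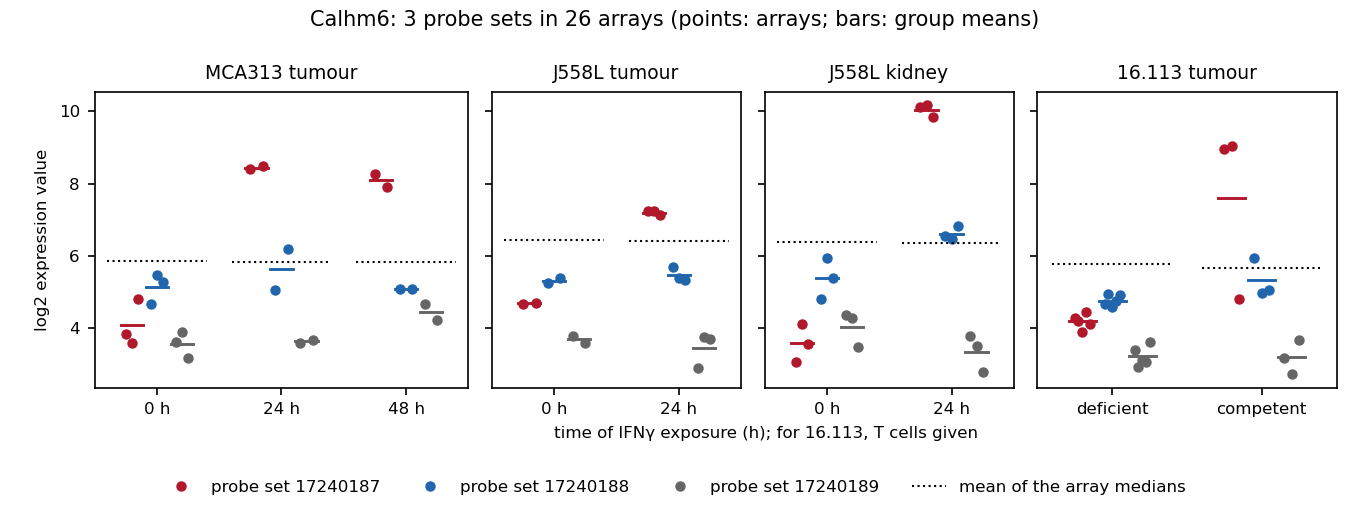
Log2 expression values of the 3 Calhm6 probe sets in all 26 arrays (vertical axis), by group (horizontal axis), with a bar for each group mean and a dotted line for the mean of the array medians; the 4 array sets are in separate panels. Probe set 17240187 lies above the dotted line in 12 induced or competent arrays and below it in every control and in competent replicate 3 at 4.81, whereas 17240189 stays below it throughout.

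Most other IFNγ genes that were measured lay above the deficient mean in competent replicate 3. Of 13 measured genes of a list of IFNγ signalling and target genes, 12, 9 and 11 were above all 5 deficient arrays in competent replicates 1, 2 and 3. The share of all genes that did so in a single replicate was not computed, so no background stands beside these counts. The median difference of the 13 genes from the deficient mean was 1.83, 1.52 and 1.51 on the log2 scale. The difference of Calhm6 was 4.78, 4.84 and 0.63. Gm12250 and Igtp, interferon-inducible GTPase genes, differed by 3.73, 3.45 and 3.50 and by 2.96, 2.73 and 2.50, and Irf1, a transcription factor gene induced directly by IFNγ, by 2.01, 1.92 and 1.56. Ifi204, an interferon-inducible gene of the Ifi200 family, differed by 1.77, 0.68 and 0.21. Of the list genes above all deficient arrays in replicates 1 and 2, Ifi204 alone was not above them in replicate 3, and it was already lower in replicate 2, where Calhm6 was highest. The cause of the low value of Calhm6 in replicate 3 was not tested.

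**Figure D2:**
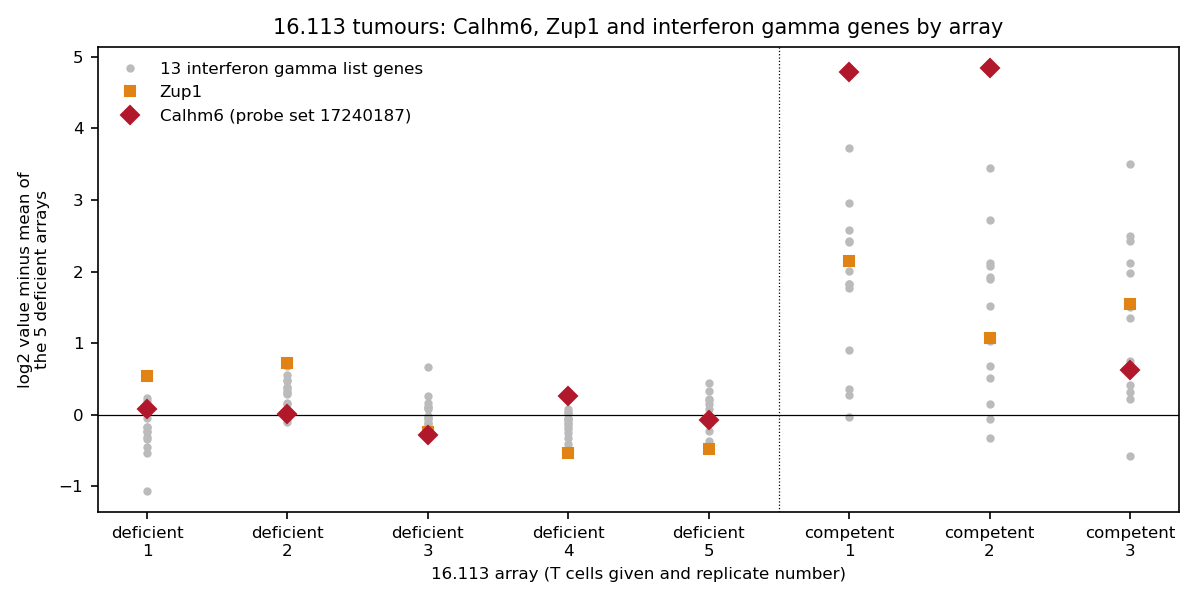
Log2 value minus the mean of the 5 deficient arrays (vertical axis) in each 16.113 array (horizontal axis), for Calhm6 at probe set 17240187 (diamonds), the neighbouring gene Zup1 (squares) and the 13 IFNγ list genes (grey points). Calhm6 stands at 4.78 and 4.84 in competent replicates 1 and 2 and at 0.63 in replicate 3, where the IFNγ list genes have a median of 1.51.

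The 3 probe sets of Calhm6 disagreed. Probe set 17240188 read 4.67, 5.46 and 5.27 in MCA313 tumours at 0 h, 5.06 and 6.18 at 24 h, and 5.10 in both arrays at 48 h, so the groups overlapped and the changes were 0.49 ± 0.35 and -0.04 ± 0.35. In J558L tumours it read 5.25 and 5.39 at 0 h and 5.68, 5.39 and 5.34 at 24 h (0.15 ± 0.35, adjusted p = 1 over all probe sets, limma), again with overlap. Kidney was different, with 4.82, 5.93 and 5.38 at 0 h and 6.54, 6.47 and 6.84 at 24 h. All 3 induced kidney arrays were above the controls there, by 1.24 ± 0.32, or 2.36-fold. In 16.113 tumours the competent arrays read 5.95, 4.98 and 5.06 and the deficient arrays 4.65, 4.93, 4.57, 4.74 and 4.91. All competent arrays lay above these, by 0.57 ± 0.28, and the exact permutation p was 0.0357, the smallest possible. That change did not pass over all probe sets (adjusted p = 0.378, limma).

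Probe set 17240189 was dim, at percentile 5.31 to 33.5 and below the median of every array. It read 3.60, 3.90 and 3.16 in MCA313 tumours at 0 h, 3.59 and 3.68 at 24 h, and 4.66 and 4.21 at 48 h. The 48 h arrays lay above the controls (0.88 ± 0.37), while at 24 h the groups overlapped (0.08 ± 0.37). In J558L tumours the values were 3.79 and 3.59, then 2.90, 3.77 and 3.70 (-0.23 ± 0.37, adjusted p = 1, limma). Kidney endothelium read 4.35, 4.27 and 3.46, then 3.77, 3.50 and 2.77 (-0.68 ± 0.33), in the opposite direction to the bright probe set, with overlap between the groups. The 16.113 competent arrays read 3.17, 2.73 and 3.68 and the deficient arrays 3.39, 2.94, 3.13, 3.07 and 3.62 (-0.04 ± 0.29, adjusted p = 0.979, limma). Levels below the array median may be background, so a change of a dim probe set, or its lack, says little about the transcript it reads.

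Within an array the gap between probe sets is free of the array's own level. Its sign has no meaning of its own, since levels of different probe sets are not comparable, but its shift between groups can be read. The gap of 17240187 over 17240188 averaged -1.05 in MCA313 controls, 2.81 at 24 h and 2.99 at 48 h. It averaged -0.64 and 1.73 in J558L tumour and -1.79 and 3.43 in kidney, without and with induction. In 16.113 it was 3.02, 4.05 and -0.25 in competent replicates 1, 2 and 3, and -0.79 to -0.29 in the deficient arrays, so replicate 3 stood beside the highest deficient array. In 16.113 the gap differed between T cell groups by 2.85 (exact permutation p = 0.0357, two-sided). Over the dim probe set 17240189 it differed by 3.45, with overlap between the groups (exact permutation p = 0.1071). Probe set 17240187 was chosen by its mean over all arrays, those of 16.113 included. That choice favours a probe set that is high in the competent arrays, so these tests are not free of it. Averaging the 3 probe sets into 1 value gave changes of 1.64 and 1.62 in MCA313, 0.81 in J558L tumour, 2.34 in kidney and 1.32 in 16.113, so the stated size of the response of Calhm6 depends on the probe set read.

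By place within its own array, Calhm6 at probe set 17240187 was highest in induced kidney (mean percentile 89.9), followed by MCA313 at 24 h (80.6) and 48 h (77.2), 16.113 competent (71.4), J558L tumour at 24 h (60.9), 16.113 deficient (27.0), MCA313 at 0 h (24.8), J558L tumour at 0 h (24.3) and kidney at 0 h (13.6). The competent group, at percentile 37.9 to 88.6, overlapped its neighbours in this order on both sides. The 3 tumour controls overlapped one another, and kidney at 0 h (8.64 to 19.1) overlapped MCA313 at 0 h (18.3 to 35.0). Uninduced kidney thus held the lowest place and induced kidney the highest.

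**Figure D3:**
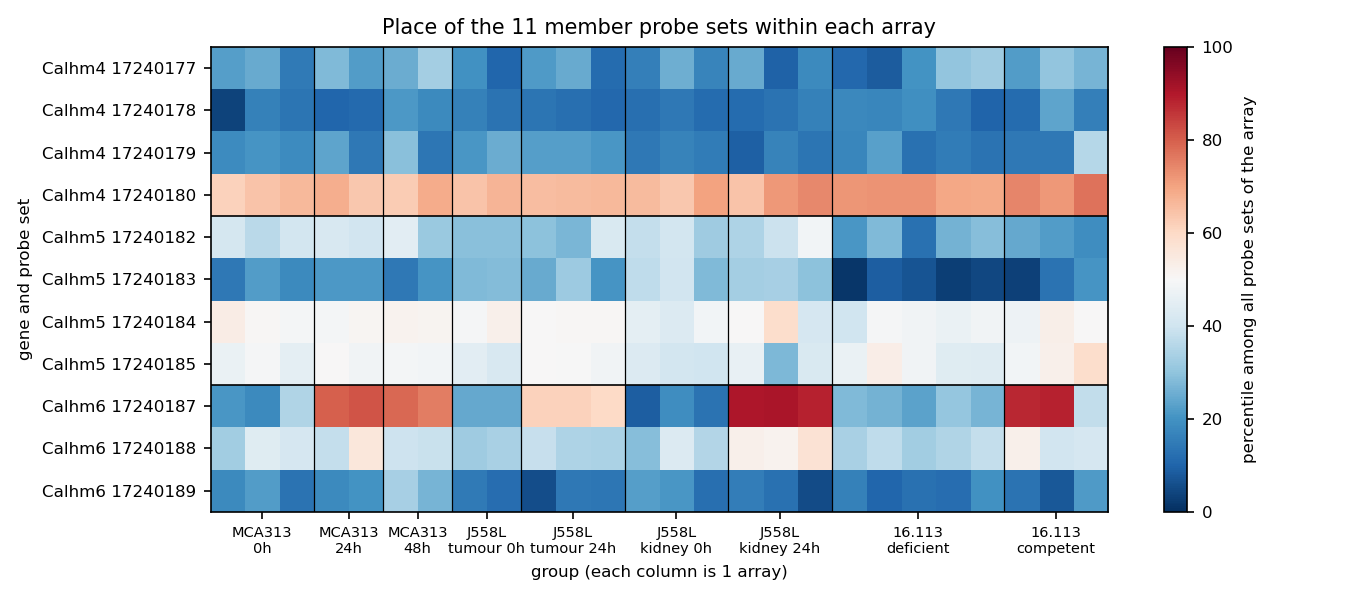
Percentile of each of the 11 probe sets among all probe sets of the same array (colour), with 1 row per probe set and 1 column per array, grouped by condition. Calhm6 probe set 17240187 runs from percentile 8.64 in a kidney control to 90.7 in induced kidney, while Calhm4 probe set 17240180 stays between 61.6 and 77.04.

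Calhm4 was readable at 1 of its 4 probe sets. Probe set 17240180 lay above the median of all 26 arrays, between 6.72 and 8.15, and the other 3 lay below it in every array, at percentile 3.74 to 35.6. In MCA313 tumours 17240180 averaged 6.92 ± 0.18 (SD, n = 3) at 0 h, 6.998 ± 0.335 (SD, n = 2) at 24 h and 6.99 ± 0.37 (SD, n = 2) at 48 h, changes of 0.08 ± 0.26 and 0.06 ± 0.26. In J558L tumours it averaged 7.59 at both times (0.00 ± 0.23, 95% confidence interval -0.48 to 0.48, adjusted p = 1.00, limma). In kidney it moved from 7.60 ± 0.24 to 7.86 ± 0.41 (SD, n = 3 each), by 0.26 ± 0.23, and in 16.113 from 7.30 ± 0.14 (SD, n = 5) to 7.52 ± 0.24 (SD, n = 3), by 0.22 ± 0.18 (interval -0.16 to 0.61, adjusted p = 0.521, limma). The groups overlapped in all 5 comparisons. At 17240180 these intervals leave out a change as large as that of Calhm6 at 17240187 in J558L tumour (2.52) and 16.113 (3.42). They say nothing of the rest of Calhm4, since probe sets of a gene can disagree, as those of Calhm6 did.

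The dim probe sets of Calhm4 moved little. At 17240178 both MCA313 arrays at 48 h were above the controls (0.67 ± 0.30), and in J558L tumour all induced arrays were below (-0.28 ± 0.30, adjusted p = 1, limma). Its other changes were -0.05 in MCA313 at 24 h, 0.12 in kidney and 0.04 in 16.113. Changes of 17240177 lay between -0.18 and 0.60 and those of 17240179 between -0.21 and 0.30, and their groups overlapped in each comparison.

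Calhm5 lay near the array medians at its brighter probe sets, 17240184 and 17240185, which exceeded the median in 12 and 5 of 26 arrays. Probe set 17240184 averaged 5.95, 5.83 and 5.92 in MCA313 at 0 h, 24 h and 48 h, 6.51 and 6.45 in J558L tumour, 6.06 and 6.37 in kidney, and 5.53 and 5.70 in 16.113 with deficient and competent T cells. The groups overlapped throughout, and the change was -0.06 ± 0.24 in J558L tumour (95% confidence interval -0.56 to 0.45, adjusted p = 0.999, limma) and 0.17 ± 0.19 in 16.113 (interval -0.24 to 0.57, adjusted p = 0.670). At 17240185 all J558L tumour arrays after induction lay above the controls, by 0.37 ± 0.30 (adjusted p = 1, limma), and the other 4 changes lay between -0.21 and 0.32 with overlap. Probe sets 17240182 and 17240183 were below the median in all 26 arrays, with changes of -0.16 to 0.24 and -0.25 to 0.52 and overlapping groups. The exact permutation p of the 8 probe sets of Calhm4 and Calhm5 in 16.113 lay between 0.1429 and 0.8929.

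Over the 11 member probe sets, the induced arrays lay wholly above the controls at 1 probe set in MCA313 at 24 h, 3 at 48 h, 2 in J558L tumour, 2 in kidney and 2 in 16.113. Of all 65535 probe sets, 11.5%, 12.1%, 11.4%, 7.82% and 2.75% did so. They lay wholly below at 0, 0, 1, 0 and 0 probe sets, beside 14.7%, 15.1%, 13.6%, 8.84% and 3.6% of the table. With groups this small such separation is common, so the counts are read beside these shares. Past the limma threshold over all probe sets there was 1 of 11, 17240187 in 16.113 (adjusted p = 0.00513), where 2.02% of the table passed, and 0 of 11 in J558L tumour, where 0.0916% passed and 1 of the 11, again 17240187, had an unadjusted p under 0.05.

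**Figure D4:**
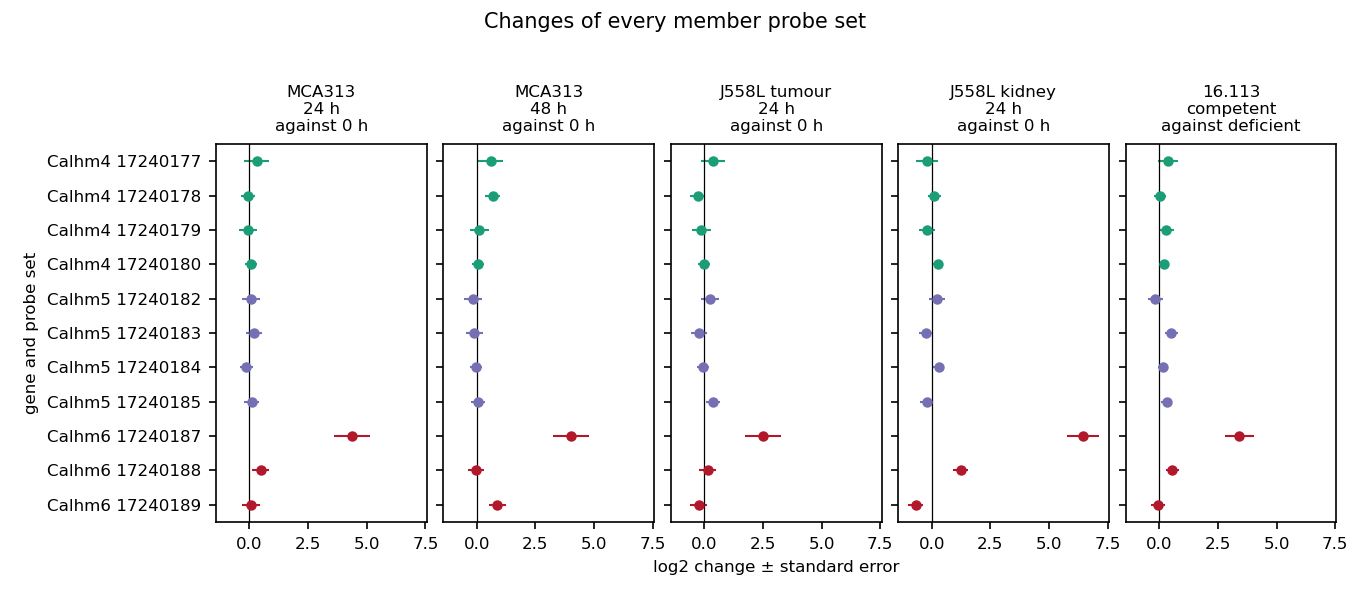
Log2 change of each of the 11 probe sets (horizontal axis) with its standard error from the fit over all arrays, in 5 panels, 1 for each comparison with a control. Calhm6 probe set 17240187 stands apart at 2.52 to 6.46, and the other probe sets lie between -0.68 and 1.24.

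The neighbourhood was read from the 10 genes on each side of the cluster. Of these 20 genes, 13 had a probe set and 10 were tested. None passed in MCA313, J558L tumour or kidney, where 0.684% (24 h), 1.37% (48 h), 0.547% and 3.17% of all genes passed in limma. In 16.113, where 7.36% of all genes passed, 1 did. The median change of the 10 genes was -0.03, -0.09, -0.13, -0.18 and -0.14, beside -0.01, -0.02, -0.01, 0.01 and -0.03 over all 4386 genes. An unadjusted p under 0.05 was found for 479, 560, 357 and 602 of all genes in the 4 comparisons with no neighbour past the threshold.

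The neighbour that passed was Zup1, which encodes a deubiquitinase, at chr10:33919142-33951294 on the Calhm4 side of the cluster. In 16.113 it read 10.90, 9.83 and 10.31 with competent T cells and 9.29, 9.49, 8.52, 8.23 and 8.28 with deficient ones. The groups did not overlap, and Zup1 rose by 1.59 ± 0.28 (adjusted p = 0.00167, limma), from 8.76 ± 0.59 (SD, n = 5) to 10.35 ± 0.54 (SD, n = 3), with 12 of its 13 probe sets higher. Of the 13, 7 lay wholly above the deficient arrays, as did 2.75% of all probe sets. Without competent replicate 3 Zup1 remained the 1 neighbour past the threshold, and with the 16.113 arrays alone none passed.

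In the other comparisons Zup1 did not pass. It read 9.23, 9.35 and 8.97 in MCA313 at 0 h, 9.81 and 9.73 at 24 h (0.59 ± 0.35, adjusted p = 0.618) and 10.09 and 10.20 at 48 h (0.96 ± 0.35, adjusted p = 0.214). In J558L tumour it read 9.46 and 9.97, then 10.85, 10.82 and 10.98 (1.17 ± 0.35, adjusted p = 0.175), and in kidney 10.03, 10.24 and 9.50, then 10.76, 11.39 and 11.07 (1.14 ± 0.31, adjusted p = 0.0501, limma). Every induced array was above its controls in all 4, as held for 11.5%, 12.1%, 11.4% and 7.82% of all probe sets. Of the 13 probe sets of Zup1, 11, 12, 13 and 13 were higher, with median changes of 0.73, 0.90, 1.25 and 1.63. Wholly above the controls were 8, 10, 11 and 9 of them. Unlike Calhm6, the change of Zup1 was carried by most of its probe sets, and its control levels were above the array medians. Its promoter window did not hold the paired GAAA motif.

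The other tested neighbours, those closer to Calhm6 than Zup1 among them, did not pass. Trappc3l, which encodes a subunit-like protein of a vesicle tethering complex and overlaps the span of Calhm4 and Calhm5, changed by -0.10 to 0.45 at its brightest probe set. Dse, the dermatan sulfate epimerase gene next to Calhm6, changed by 0.29, 0.28, -0.52, 0.46 and -1.43 with standard errors of 0.75 to 0.94, and the last value, in 16.113, turned to 0.20 without competent replicate 3. Frk, a tyrosine kinase gene, was the nearest to a fall, at -1.03 ± 0.29 in kidney (adjusted p = 0.0579, limma). In some alternative fits 1 or 2 neighbours passed in kidney.

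**Figure D5:**
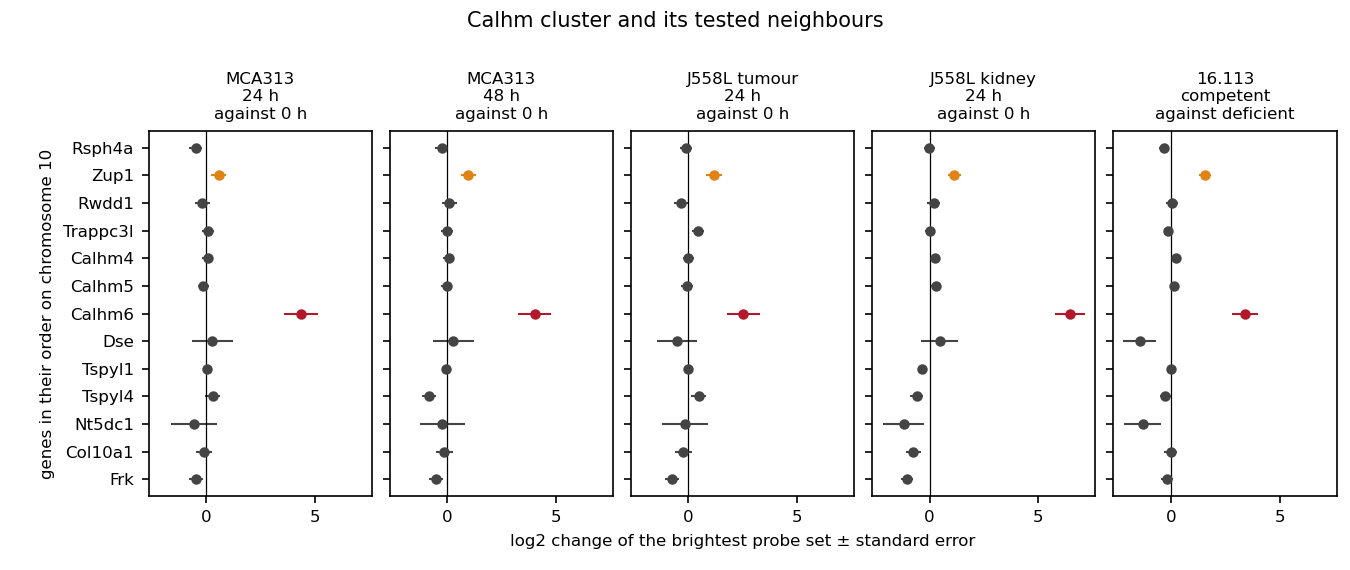
Log2 change (horizontal axis) with its standard error for the brightest probe set of the 3 Calhm genes and the 10 tested neighbours, listed in chromosome order, in the 5 comparisons. Calhm6 (red) and Zup1 (orange, 0.59 to 1.59) alone lie to the right of 0 by more than their standard error in all 5 panels at once. In single panels other genes do so too, among them Trappc3l in J558L tumour (0.45 ± 0.27).

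Other genes of related function were read from lists chosen with earlier results known. Of 28 connexin, pannexin and LRRC8 genes, whose products also form large-pore channels, 4 were tested (Gja1, Gjc1, Gjd3 and Gje1). None rose past the test, and 1 fell, Gja1 in 16.113, by 0.58 ± 0.12 (adjusted p = 0.00483, limma) with 1 of its 3 probe sets higher, where 4.81% of all genes fell. Of 31 genes for extracellular ATP receptors and nucleotidases, 5 were tested (P2rx1, P2rx5, Entpd5, Enpp1 and Enpp3), with changes between -0.95 and 0.58. None passed in any of the 5 comparisons, where 0.547% to 7.36% of all genes passed. Calhm1, Calhm2 and Calhm3 were not analysed here. Of the 13 measured IFNγ genes, 4, 6, 3, 6 and 9 rose in MCA313 at 24 h and 48 h, J558L tumour, kidney and 16.113, and none fell, where 0.547%, 0.912%, 0.365%, 1.64% and 2.55% of all genes rose. Their median changes were 1.30, 1.17, 0.83, 0.98 and 1.57. Without competent replicate 3, 9 rose in 16.113.

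Since Calhm6 is known from macrophages and dendritic cells, markers of those cells were read beside it. Of 15 listed genes 7 were measured and 6 tested, and 0 passed in any of the 5 comparisons. Since 0.547% to 7.36% of all genes passed, none past the test among so few genes says little. Higher were 3, 4, 3, 5 and 1 of the 6 in MCA313 at 24 h and 48 h, J558L tumour, kidney and 16.113. Their median changes were 0.06, 0.08, 0.01, 0.22 and -0.27. In kidney changes ran from -0.96 to 0.90, and in 16.113 from -1.16 (Lyz2, standard error 0.68) to 0.08. The mean of the 7 measured genes in an array ranged from 6.95 to 7.52 in MCA313 at 0 h, 7.19 to 7.39 at 24 h and 7.26 to 7.29 at 48 h. In J558L tumour the range was 7.86 to 7.97 at 0 h and 7.70 to 8.12 at 24 h, and in kidney 7.39 to 7.70 and 7.43 to 7.88. In 16.113 it was 7.48 to 9.07 with deficient and 7.86 to 8.37 with competent T cells, so these ranges overlapped in each set. Lyz1 was below the median of all 26 arrays. The part of these cells in the values of Calhm6 was not tested. In sorted bulk samples fewer cells of a type and less RNA per cell cannot be told apart.

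Of 7 tested leukocyte and T cell markers and 4 fibroblast and pericyte markers, none passed in any comparison. With 0.547% to 7.36% of all genes past the test, this says little for lists so short. Prf1, the perforin gene of cytotoxic lymphocytes, was higher by 1.102 in 16.113 (adjusted p = 0.0629, limma), with 6.18, 6.87 and 6.18 in the competent and 4.86 to 5.57 in the deficient arrays, which did not overlap. It differed by 0.69 in J558L tumour (adjusted p = 0.828, no overlap) and 1.04 in kidney (adjusted p = 0.207, with overlap), with all 4 of its probe sets higher in each of the 3 comparisons, and by 0.11 and -0.01 in MCA313 at 24 h and 48 h. Of all probe sets, 2.75% in 16.113 and 11.4% in J558L tumour lay wholly above their controls. Prf1 is named after its values were seen, and its part in the change of Calhm6 was not tested. Krt19, the 1 measured kidney epithelial marker, fell in 16.113 by 1.38 (adjusted p = 0.00562, limma), with 3 of its 12 probe sets higher. Sdc1, 1 of 2 plasma cell markers, fell there by 0.94 (adjusted p = 0.0392, limma), with 5 of its 12 probe sets higher. Of all genes, 4.81% fell past the test in 16.113. Without competent replicate 3 Krt19 still passed (-1.50, adjusted p = 0.0176, limma) and Sdc1 did not (-0.64, adjusted p = 0.255). Both fell where Calhm6 rose, and their part in its change was not tested.

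The genes most like Calhm6 were ranked by Pearson's r with its bright probe set over 26 arrays, after the mean of each array set had been subtracted. The arrays of a set share their normalization and their contrast of IFNγ against none, so r takes in that contrast. The first 10 of 4385 genes were Spop, a substrate adaptor of a cullin ubiquitin ligase (0.90), Ifi204 (0.89), Nampt, an enzyme of NAD synthesis (0.88), Ifi206 (0.87), Ifi205 (0.87), the orphan receptor gene Gpr179 (0.87), the uridine phosphorylase gene Upp1 (0.86), 4933412E12Rik (0.86), the nuclear body gene Sp140 (0.86) and Sec61g, a subunit of the protein translocation channel of the endoplasmic reticulum (0.86). Over all genes r had a median of -0.02, with 5% below -0.55 and 5% above 0.55.

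Spop changed little in size, by 0.26 to 0.96, whereas Ifi205 changed by 1.46 to 4.28 and Sp140 by 1.98 to 2.59 over the 5 comparisons. Within the 8 arrays of 16.113, r of the 10 genes with Calhm6 lay between 0.55 (Upp1) and 0.86 (Ifi206). Zup1 ranked 60th (r = 0.74), Gm12250 34th (0.80), Igtp 51st (0.77) and Irf1 75th (0.72), and these 4 were chosen after their values were seen. Calhm4 and Calhm5 ranked 839th (0.27) and 905th (0.25).

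Of the 10 most similar genes 9 had a promoter window in the RefSeq table. The paired GAAA motif stood in 2 of the 9, Ifi206 and Ifi205. Ifi205 held a further match, TTTCACTTTC, on the other strand after the start. The matches before the start are set beside that of Calhm6 with 10 bases on each side, 5′ to 3′ on the strand of the gene, with the matched letters in capitals.
Calhm6 (64 bases before the start): tgaaaaaaaaGAAAGTGAAAcccggaaggg
Ifi206 (40 bases before the start): tgtctctgagGAAATCGAAAgctatgaacc
Ifi205 (134 bases before the start): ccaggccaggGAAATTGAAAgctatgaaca
Spop, the most similar gene, and the other genes with a window did not hold the motif in these windows, which says that the letters are not there and nothing about other sites.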

How the data were processed

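Gene expression was measured in 26 endothelial samples on Affymetrix arrays. Per the labels' protocols, RNA of 5000 to 15000 sorted cells was extracted and about 500 pg amplified over 12 cycles, which adds noise to dim probe sets. The deposited log2 values per probe set had been normalized by the authors, by a method not given in the sources used here. Affymetrix Expression Console and limma appear in the submitters' processing notes. Exact values recurred within 4 array sets (1.24% to 7.59% of values shared by a pair of arrays) and almost never between sets (at most 0.015%), so the sets were treated as normalized separately.

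Symbols came from the array annotation and were updated through the RefSeq table of GRCm38.p6 (4618 current, 494 synonyms, 8 unmatched). Probe sets having more than 1 symbol (766) or no symbol (10912) entered no gene value. A gene was read at the probe set with the highest mean over all arrays, which chooses 1 exon region where a gene's probe sets disagree. It was tested if that probe set exceeded the 50th percentile in at least 2 arrays, which left 4386 genes. Calhm6 exceeded the median in 12 arrays, none of them a control, so it passed this filter through induced and competent arrays alone. Group means of the 9 groups were estimated from the 26 arrays with limma 3.58.1 under R 4.3.3, and p-values were adjusted by Benjamini-Hochberg over all genes tested (threshold 0.05). The same fit was run on all 65535 probe sets with no filter. Exact permutation tests were used within 16.113. Another motif searched in the promoter windows is not reported here. The procedure was tested on simulated data. For arrays, precision is limited by their number, and background was not measured.

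The members and the lists were chosen with earlier results of these data known. Named genes were the members, neighbours and list genes past the test or else up to 2 with the largest change, the 10 genes most like Calhm6 and the cell type markers. The settings varied were the filter (none, or 75th percentile), the normalization (quantile over the 26 arrays), the gene value (mean of its probe sets), the variance prior (trended and robust), weights for arrays, a block for the replicate number (statmod 1.5.0), the arrays fitted (each set alone) and, in turn, the omission of each array.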

Additional observations from a re-analysis of the deposited data

Results flagged for a closer look

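The 16.113 deficient group, with 5 arrays, was the 1 group large enough to be looked at for a single distant array. Among 31 probe sets read there, 2 had a gap ratio above the critical value, and chance flags about 1 in 20. The smaller groups, the 16.113 competent group among them, were not looked at. Deficient replicate 1 of 16.113 stood low at 5.11 for Calhm5 probe set 17240184 (gap over range 0.753). Deficient replicate 3 stood at 5.90 for 4933412E12Rik, 1 of the 10 genes most like Calhm6 (gap over range 0.751).

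Among 33 pairs of comparisons of member probe sets, 2 were flagged, both between MCA313 at 24 h and kidney. A pair was flagged where all treated arrays lay on 1 side of the control mean in each comparison, and the sides were opposite. Other probe sets had mean changes of opposite sign without meeting this rule. Calhm5 probe set 17240183 changed by 0.22 and -0.25, a difference of 0.465, and Calhm6 probe set 17240189 by 0.08 and -0.68, a difference of 0.757. Neither difference was tested, and both probe sets lay below the array median in all 26 arrays.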

How the results depend on the processing

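Calhm6 stayed higher with IFNγ in all 5 comparisons under every alternative run. Averaging its probe sets lowered the change to 1.64 and 1.62 in MCA313 at 24 h and 48 h and to 2.34 in kidney. In J558L tumour the call was gained with array weights (2.52, adjusted p = 0.00171) and with its own set alone (2.52, adjusted p = 0.0198), and in 16.113 it was lost with its set alone (3.42, adjusted p = 0.109). Leaving out each array in turn gave 4.12 to 4.73, 3.77 to 4.38, 2.50 to 2.56, 6.21 to 6.73 and 2.71 to 4.81 in MCA313 at 24 h and 48 h, J558L tumour, kidney and 16.113. Leaving competent replicate 3 out of the J558L tumour result, and of single probe sets, was chosen after seeing the data.

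Genes past the threshold numbered 30, 60, 24, 139 and 323 in that order. With averaged probe sets they were 123, 136, 93 and 260 in the first 4 comparisons, and with array weights 60, 127, 242 and 77 in MCA313 at 24 h, J558L tumour, kidney and 16.113. With each set alone they were 1, 4, 67 and 34 in MCA313 at 24 h and 48 h, kidney and 16.113, and the stricter filter gave 47 in MCA313 at 24 h. Leaving out an array gave 12 to 49, 14 to 79, 3 to 18, 69 to 103 and 197 to 565. Of neighbouring genes 2 passed in kidney with the stricter filter and with array weights, and 1 with quantile normalization, averaged probe sets or the variance prior with trend. With averaged probe sets 1 passed in MCA313 at 48 h, 1 in J558L tumour and 2 in 16.113, with array weights 1 in J558L tumour, and with its set alone 0 in 16.113. Leaving out an array gave 0 in the first 4 comparisons and 1 to 2 in 16.113. The cause of these shifts was not tested.

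Within an array set, deviations from group means gave r from -0.14 to 0.11 for arrays of the same replicate number. For different numbers r ran from -0.11 to 0.14. In a group of 2 arrays the deviations mirror each other, and J558L tumour arrays were not compared with kidney arrays. This check therefore cannot exclude that the numbers pair samples. With the replicate number as a block (consensus correlation -0.07) Calhm6 changed by 4.33, 3.99, 2.51 (adjusted p = 0.216), 6.46 and 3.41 (adjusted p = 0.00227), and 20, 43, 24, 114 and 301 genes passed. Of the 10 genes most like Calhm6, 1 was among the first 10 by r over the 5 changes, and 3, 4, 4 and 0 within MCA313, J558L tumour, kidney and 16.113 alone. Groups of 2 and 3 arrays limit what could be detected, most of all for dim probe sets near background.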
